A study of Mus musculus with 4 samples.

Results

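Hemoglobin RNA was followed through 5 genes, the adult globin genes Hbb-bs, Hbb-bt, Hba-a1 and Hba-a2 and the erythroid enzyme gene Alas2, out of 32285 genes in the deposited matrices. They were taken by symbol, and all 5 were found. The set was chosen by the summed globin UMIs of the thymic nuclei that the authors labelled Ad IIc, which stood above those of the other labels, so levels by label are given as a description. A library of single nuclei came from 6 pooled thymi of 4-month-old male mice, and another from epigonadal white fat of 4-month-old males, for which the sources used here give neither the number of animals nor the strain and diet. All libraries are labelled wild type and naïve, and the thymus donors were C57/BL6 mice on standard chow. The protocol, which is worded for the thymus in every label, cleaned the capsules of surrounding fat and digested them with DNase I and Collagenase II. The floating layer was taken before nuclei were isolated and captured in 10x droplets. A chromatin library of 16 pooled thymi of 6-month-old naïve C57/BL6 females on standard chow and is described last. Each group is 1 library, so there is no replicate check, no test and no p-value. Intervals are 95% and cover counting error only.

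Hemoglobin is a tetramer of a pair of alpha and a pair of beta chains, each holding a heme group, and carries oxygen in red blood cells. Mice of the C57BL/6 strain carry the beta genes Hbb-bs and Hbb-bt, and the alpha genes Hba-a1 and Hba-a2 are near-identical copies. Alas2 encodes the erythroid form of the first enzyme of heme synthesis and is transcribed in developing red cells, where its mRNA is far less abundant than globin mRNA. Circulating mouse red cells have no nucleus, and the youngest of them, reticulocytes, still hold globin mRNA. Adipocytes are not known as a site of hemoglobin synthesis. Reads of Hba-a1 and Hba-a2, and of the related beta pair, can be hard to assign, and the sources used here do not say how such reads were treated. Values for single copies are therefore less certain than the alpha and beta sums.

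The genes lie in 3 places of the mouse genome (GRCm38). Hbb-bs (ENSMUSG00000052305) is at chr7:103826523-103827928 and Hbb-bt (ENSMUSG00000073940) at chr7:103812524-103813923, both on the minus strand. Hba-a1 (ENSMUSG00000069919) is at chr11:32283672-32284486 and Hba-a2 (ENSMUSG00000069917) at chr11:32296492-32297310, both on the plus strand. Alas2 (ENSMUSG00000025270) is at chrX:150547417-150570622 on the plus strand. The 220 bases before the start of 4 of these genes are shown because their RNAs were detected together in the barcodes described below and because chromatin fragments over them were counted. They are RefSeq sequences of GRCm38.p6, 5′ to 3′ on the strand of the gene, from chr7:103827929-103828148 for Hbb-bs, chr7:103813924-103814143 for Hbb-bt, chr11:32283452-32283671 for Hba-a1 and chrX:150547197-150547416 for Alas2. Capitals mark each match on either strand to a set of short promoter motifs: GATAA for the sites of GATA factors, CACCC for the boxes that Klf factors bind, CCAAT for the box of that name and TATAA for the TATA box.
Hbb-bs: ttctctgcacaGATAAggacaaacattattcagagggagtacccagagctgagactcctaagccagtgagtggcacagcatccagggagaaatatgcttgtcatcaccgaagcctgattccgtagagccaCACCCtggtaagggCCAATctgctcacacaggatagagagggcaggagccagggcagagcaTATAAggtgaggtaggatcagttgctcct
Hbb-bt: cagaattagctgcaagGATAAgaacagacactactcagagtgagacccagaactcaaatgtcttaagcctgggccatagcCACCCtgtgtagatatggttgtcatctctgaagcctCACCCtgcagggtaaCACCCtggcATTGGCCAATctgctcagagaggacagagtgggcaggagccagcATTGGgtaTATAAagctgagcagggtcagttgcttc
Hba-a1: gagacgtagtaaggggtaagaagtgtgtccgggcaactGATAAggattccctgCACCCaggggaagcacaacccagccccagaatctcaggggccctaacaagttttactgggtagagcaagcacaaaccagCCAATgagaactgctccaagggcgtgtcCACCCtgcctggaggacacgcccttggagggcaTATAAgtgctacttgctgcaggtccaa
Alas2: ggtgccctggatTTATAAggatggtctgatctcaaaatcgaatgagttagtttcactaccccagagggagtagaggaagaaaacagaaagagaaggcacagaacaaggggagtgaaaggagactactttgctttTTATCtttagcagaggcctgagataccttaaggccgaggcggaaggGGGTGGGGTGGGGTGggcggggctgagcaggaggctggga

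Each of the 4 globin promoters held all 4 motifs in the 250 bases before the start, an arrangement found in 0.968% of 32851 mouse promoters over windows of the same length. Taken singly the motifs are common: GATAA was present in 22.6% of these promoters, CACCC in 52.0%, CCAAT in 33.8% and TATAA in 22.8%. TATAA began 29 bases before the start of Hbb-bs, 28 before Hbb-bt, 27 before Hba-a1 and 30 before Hba-a2. CCAAT began 76, 75, 88 and 91 bases before the start of the same genes. Alas2 held GATAA and CACCC on the other strand and TATAA farther from its start, and no CCAAT in this window. Its only overlap of motifs was TATAA on both strands. The promoter windows of Hba-a1 and Hba-a2 shared an unbroken run of 297 of their 300 bases, which is why 1 alpha promoter is shown, whereas the longest run shared by Hbb-bs and Hbb-bt was 14 bases. These matches describe letters and do not show that a factor binds.

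The thymic matrix held 22600 barcodes, of which the authors labelled 365, and the epigonadal matrix held 5043, of which 1564 were labelled. The 4 globins summed to 30694 unique molecular identifiers (UMIs, each counting 1 captured RNA molecule) in the thymus and 36553 in the fat, and Alas2 to 102 and 103. Of all nuclear-encoded UMIs, globins made up 0.597% in thymic and 0.616% in epigonadal barcodes. Barcodes without a label were divided at 20% mitochondrial UMIs, a sign of RNA from outside the nucleus. This gave 929 below and 21306 at or above in the thymus, and 2919 and 560 in the fat. The mitochondrial share is taken over all UMIs, globins included, so many globin UMIs can bring a barcode below the split. The libraries shared 147 barcode sequences, none of them globin-rich as defined below. UMIs are counted per molecule and not per length, so genes are compared across barcodes and by their shares, not by level against each other.

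Summed over the 34 nuclei labelled Ad IIc in the thymus, the 4 globins reached 25892 CPM (24556 to 27283), where CPM is the usual scaling of UMIs to the nuclear-encoded total. With the split at 20% this was the highest level of the 14 groups, above the thymic unlabelled barcodes below the mitochondrial split at 12605 CPM (12406 to 12807) and the epigonadal ones at 10507 CPM (10399 to 10617). A split at 10% turned this order, with the thymic unlabelled barcodes below it at 28141 CPM. The thymic barcodes at or above the split of 20% followed at 4067 CPM (3999 to 4135), a value that was 1713 CPM over all UMIs and 950.5 CPM in barcodes of at least 1000 UMIs. The other thymic labels were between 185 CPM in Ad IIb (60.1 to 432) and 570 CPM in Ad Ib (311 to 956). Epigonadal nuclei with the same label Ad IIc were at 393 CPM (341 to 451), and the other epigonadal labels between 99.5 CPM in Ad IIb (54.4 to 167) and 1015 CPM in Ad Ib (843 to 1211). At the 20% split and over nuclear-encoded UMIs, the intervals of the 4 highest levels did not overlap with their neighbours in this order. From epigonadal Ad Ib downward most neighbouring intervals overlapped. These intervals leave out the spread between barcodes: 5 barcodes held 64.4% of the globin UMIs of the thymic unlabelled group below the split. In barcodes of at least 1000 UMIs that group was at 11841 CPM, under the epigonadal one at 12165. Without its highest barcode it was at 10325 CPM, so the order is not read as a difference.

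All 4 globin genes took part in the Ad IIc value. With 493 UMIs, Hbb-bs reached 9085 CPM in Ad IIc of the thymus, while its lowest level in the other thymic labels was 37.0 CPM (Ad IIb) and its highest 127 CPM (Ad IIa). Hbb-bt was at 3372 CPM (183 UMIs), against 37.0 to 81.4 CPM in the other thymic labels. Hba-a1 was at 7445 CPM (404 UMIs), against 111 to 181 CPM. Hba-a2 was at 5989 CPM (325 UMIs), and ranged from 0 UMIs in Ad IIb to 244 CPM in Ad Ib elsewhere. Alas2 had 3 UMIs in thymic Ad IIc, or 55.3 CPM (11.4 to 162), a single UMI in each of Ad Ib and Ad IIa, and none in the other labels. In epigonadal Ad IIc the same genes were at 96.9 CPM for Hbb-bs, 25.2 for Hbb-bt, 122 for Hba-a1 and 149 for Hba-a2. Alas2 had no UMI there, which allows up to 7.15 CPM by the exact interval. In the plot of CPM by group, thymic Ad IIc stands apart from the other labels of both libraries for every globin.

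**Figure D1:**
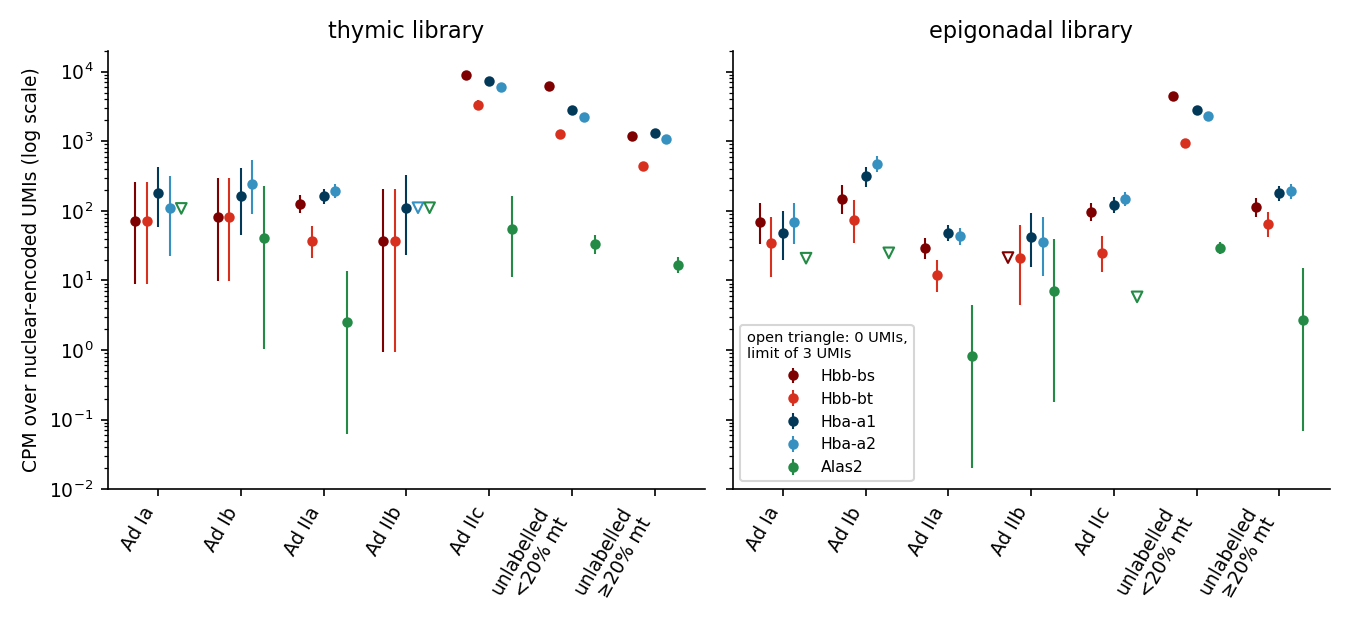
CPM over nuclear-encoded UMIs (log scale) of the 5 genes in each group of barcodes of the thymic (left) and epigonadal (right) library, with exact 95% Poisson intervals. Open triangles mark groups with 0 UMIs at the level of 3 UMIs. In the thymic library the 4 globins lie between 3372 and 9085 CPM in Ad IIc and at or below 244 CPM in the other labels.

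The level of thymic Ad IIc rested on 1 barcode. That barcode held 1395 of the 1405 globin UMIs of the label, or 99.3%, and the next highest nucleus held 2. Of the 34 nuclei, 26 had no globin UMI, 4 had 1 and 3 had 2. Without the barcode the remaining 33 nuclei were at 192 CPM (91.9 to 353), an interval that overlaps those of the other 4 thymic labels taken without their own globin-rich barcodes. The summed value of 25892 CPM is therefore the value of 1 barcode, and high hemoglobin RNA does not describe the nuclei labelled Ad IIc as a group.

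**Figure D2:**
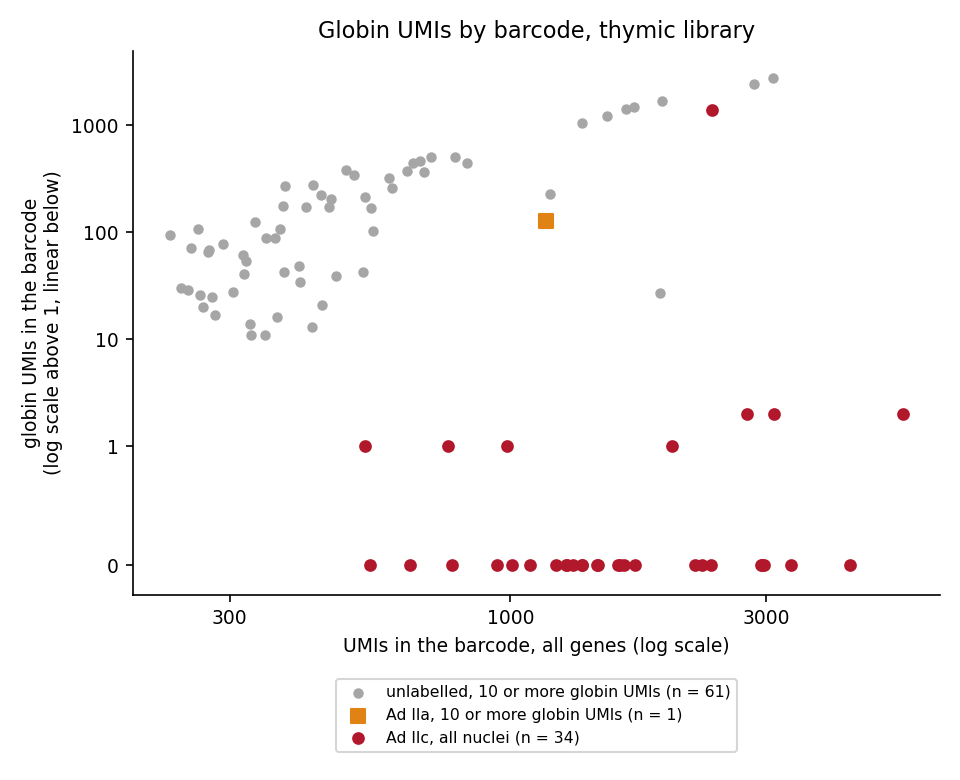
Globin UMIs (log scale above 1) against all UMIs (log scale) of single thymic barcodes: the 34 Ad IIc nuclei, the Ad IIa nucleus with 10 or more globin UMIs and the 61 unlabelled barcodes with 10 or more. A single Ad IIc nucleus, with 1395 globin UMIs, lies among the unlabelled barcodes, and the other 33 lie at 0, 1 or 2.

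The barcode had 2375 UMIs, 11.2% of them mitochondrial, and the authors classed it as a singlet. Of its 2108 nuclear-encoded UMIs, 66.2% were globin: 490 of Hbb-bs, 182 of Hbb-bt, 401 of Hba-a1 and 322 of Hba-a2. It also held all 3 Alas2 UMIs of the label. The other 713 nuclear-encoded UMIs included 13 from a list of 11 RNAs known from late red cells. Among these were 4 of Mkrn1, 3 of Bpgm (the enzyme that makes 2,3-bisphosphoglycerate), 3 of Bnip3l (which marks mitochondria for removal as red cells mature) and 2 of Ube2l6 (a conjugating enzyme). With globins left out of the denominator this list came to 18233 CPM (9708 to 31179) in the barcode, 173 CPM (78.9 to 328) in the other 33 Ad IIc nuclei and 171 CPM (136 to 212) in the remaining labels. None of the 9 erythroid transcription factors or the 14 red cell membrane genes listed had a UMI in it. At this depth 0 UMIs allow up to 5174 CPM for each list by the exact interval, so no absence is read.

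Adipocyte markers were lower in this barcode than in the other nuclei of the label. Of 8 adipocyte markers only 1 UMI was found, of Pparg, the master regulator of fat cells, or 1403 CPM without globins (35.5 to 7814). The other 33 Ad IIc nuclei held 1026 such UMIs, or 19676 CPM (18490 to 20918), with 7 of 8 markers detected and Plin1, a coat protein of lipid droplets, at 0. The remaining thymic labels were at 12076 CPM (11767 to 12390). Endothelial markers gave 1 UMI in the barcode, of Cdh5, the cadherin of endothelial junctions, or 1403 CPM (35.5 to 7814). All 9 were detected in the other Ad IIc nuclei at 8323 CPM (7558 to 9144), an interval that overlaps that of the barcode, and were at 8078 CPM (7825 to 8336) in the remaining labels. The sum over Ad IIc thus held endothelial beside adipocyte RNA, as did the pooled sum over the remaining thymic labels. In epigonadal Ad IIc endothelial markers were at 448 CPM (392 to 509), against 6081 CPM (5963 to 6202) in the other epigonadal labels. Whether both kinds of RNA lay in the same nuclei, and the part of endothelial RNA in the label, was not tested. Macrophage markers gave 1 UMI, of Mertk, a receptor for dying cells, or 1403 CPM (35.5 to 7814), against 192 CPM (92.0 to 353) in the other 33 nuclei. T cell, platelet and neutrophil markers had no UMI in the barcode, which allows up to 5174 CPM for each list. The nuclear RNAs Malat1 and Neat1 together had 8 UMIs in it, or 11220 CPM (4844 to 22108), against 14939 CPM (13908 to 16026) in the other 33 nuclei.

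Single barcodes weighed on other labels too, by smaller amounts. In thymic Ad IIa, 1 of 231 nuclei held 127 of 208 globin UMIs, which made up 12.3% of its nuclear-encoded UMIs, and 1 Alas2 UMI. Without it Ad IIa fell from 518 CPM (450 to 594) to 202 CPM (161 to 251). In epigonadal Ad Ib, 1 of 152 nuclei held 71 of 122 globin UMIs, and without it the label fell from 1015 to 428 CPM (319 to 563). In epigonadal Ad IIc, 1 of 658 nuclei held 36 of 203 globin UMIs, and the level without it was 325 CPM (277 to 378). In epigonadal Ad IIa, 590 nuclei shared 164 globin UMIs, of which no nucleus held more than 9.

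Barcodes with at least 10 globin UMIs, called globin-rich here, were few and held most of the hemoglobin RNA. There were 63 in the thymic library, 15 of them unlabelled below the mitochondrial split, 46 unlabelled at or above it and 2 labelled, and they held 71.0% of the globin UMIs of the library. There were 54 in the epigonadal library, 52 of them unlabelled below the split and 2 labelled, with 95.8% of the globin UMIs. The highest thymic barcodes held 2790 and 2437 globin UMIs, and the Ad IIc barcode was the sixth highest, after 1698, 1483 and 1416. The highest epigonadal barcodes held 3050, 2524 and 2470. Globins exceeded 50% of the nuclear-encoded UMIs in 32 of the 63 thymic and 29 of the 54 epigonadal globin-rich barcodes, with medians of 50.5% and 66.7%.

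The thymic globin-rich barcodes differed in globin content on either side of the mitochondrial split, which the split in part builds in. Globin UMIs count in the total behind the mitochondrial share, so the values are a description of barcodes sorted by the split. The 15 below it had a median of 510 globin UMIs (173 to 2790) and 86.1% globin among nuclear-encoded UMIs (48.3% to 94.1%). The 46 at or above it had a median of 67.5 globin UMIs (11 to 462) and 37.4% globin (1.81% to 92.5%), in barcodes with a median of 370 UMIs. In the plot of globin against mitochondrial share the Ad IIc barcode, at 11.2% mitochondrial UMIs and 66.2% globin, lies among the unlabelled barcodes below the split, while the Ad IIa barcode and both labelled epigonadal ones lie at 12.3% globin or lower.

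**Figure D3:**
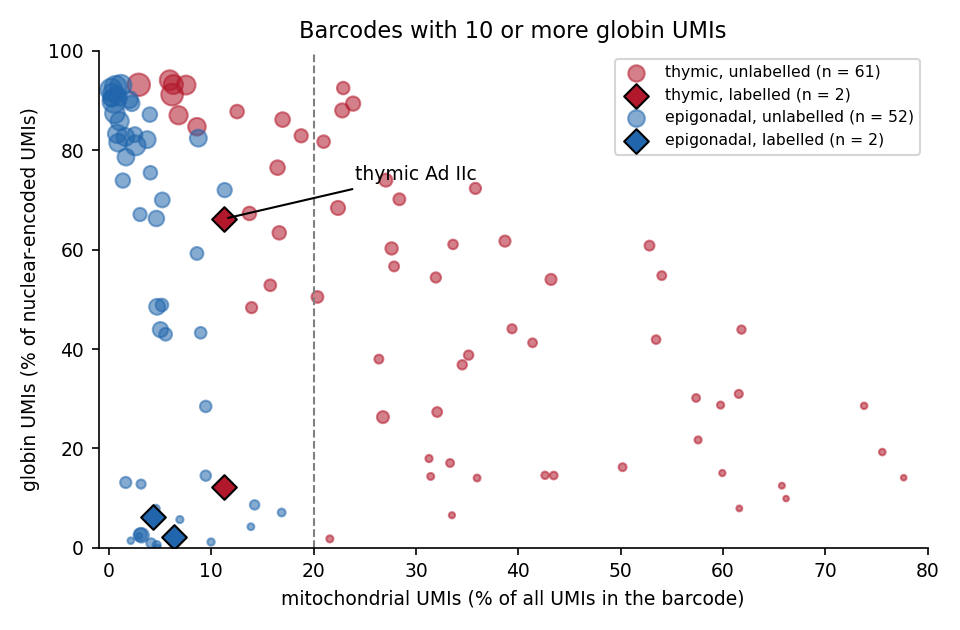
Globin UMIs as a percent of nuclear-encoded UMIs against mitochondrial UMIs as a percent of all UMIs, for the 63 thymic and 54 epigonadal barcodes with 10 or more globin UMIs. The area of a circle grows with the square root of the globin UMIs, diamonds are labelled nuclei and the dashed line is the split at 20%; the thymic Ad IIc nucleus lies at 66.2% globin.

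Alas2 lay in few barcodes, and those with several Alas2 UMIs were all globin-rich. In the thymic library 64 barcodes had an Alas2 UMI: 30 were globin-rich, 14 had 1 to 9 globin UMIs and 20 had none. All 17 with 2 or more Alas2 UMIs were globin-rich. In the epigonadal library 33 of 41 barcodes with Alas2, and all 23 with 2 or more, were globin-rich. Of labelled nuclei, 3 thymic and 2 epigonadal ones had an Alas2 UMI.

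The ratio of Alas2 to globin did not separate the globin-rich barcodes from the rest. It was 3.12 Alas2 UMIs per 1000 globin UMIs in the thymic globin-rich barcodes (2.42 to 3.96) and 3.82 in all remaining thymic barcodes (2.64 to 5.34). For epigonadal barcodes it was 2.71 (2.19 to 3.32) and 5.25 (2.26 to 10.4). The Ad IIc barcode, at 2.15 (0.443 to 6.30), overlapped all of these. With 8 Alas2 UMIs in the remaining epigonadal barcodes, a difference of the size given by these intervals was not detectable at this depth.

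Other RNAs of maturing red cells accompanied globin RNA in the unlabelled globin-rich barcodes. The 10 leading non-globin genes by log2 ratio over the remaining unlabelled barcodes were taken from genes with at least 10 UMIs in the globin-rich set. Of these, 7 were the same in both libraries. Among them were Alas2, Tent5c, Ube2l6, Bpgm, Mkrn1 and Slc25a37, which encodes mitoferrin, the importer of iron into mitochondria. Not shared were Rsad2 (60 against 179 UMIs), Fech and Ccndbp1 in the thymus, and Cd24a, Isg20 and Ube2o in the fat. The minimum was set on the globin-rich set itself and the eligible genes were not counted, so the overlap is a description. Alas2 had 64 UMIs in the thymic globin-rich barcodes against 33 in all other unlabelled ones, a log2 ratio of 8.20 (7.58 to 8.86), and 95 against 6 in the epigonadal library, 8.86 (7.80 to 10.5). Slc25a37 had 32 against 251 (4.30) and 65 against 93 (4.47). Fech, the last enzyme of heme synthesis, had 13 against 124 (4.05) and 25 against 168 (2.26).

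Counted over 48 genes of the heme synthesis, erythroid transcription factor, red cell membrane, iron and late red cell lists, 22 of 32 thymic genes with at least 10 UMIs had a log2 ratio of 1 or more, beside 30.8% of all 13111 genes tested. The median log2 ratio of the 32 genes was 1.84, against 0.04 over all genes. In the epigonadal library 14 of 29 did, beside 8.72% of 12975 genes, with medians of 0.87 and -0.37. Because the 0.5 UMI added to each sum can alone carry a gene with no UMI past this ratio, the count was repeated requiring 3 UMIs in the globin-rich set, an alternative chosen after the data were seen. It gave 11 thymic genes beside 0.618% of all genes, and 13 epigonadal genes beside 4.29%. A gene passes this limit only through the globin-rich set, and the limit lowers the share over all genes as well. These counts are therefore a description and not a test. Of the late red cell list, 7 of 9 thymic and 8 of 8 epigonadal genes were past the ratio on at least 3 UMIs, under the same limit. Leaving globins out of the denominators moved every log2 ratio by 1.63 for thymic and 0.52 for epigonadal barcodes. On that scale 30 thymic genes were past the ratio beside 63.7% of all genes, and 15 epigonadal ones beside 19%. With 3 UMIs required as well, 12 thymic genes were past it beside 1.43%, and 14 epigonadal ones beside 9.53%. Low ratios are therefore not read as falls.

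The levels of other genes in the epigonadal globin-rich set rest mostly on few barcodes. Of its 52 unlabelled barcodes, 5 had at least 5000 UMIs and between 0.105% and 2.62% globin, and they held 73.5% of the non-globin UMIs of the set. No thymic one was as deep. Levels are therefore also given for the globin-rich barcodes with over 50% globin, called globin-dense, 31 in the thymus and 29 in the fat, a division made after the data were seen. All levels here are CPM without globins. The late red cell list came to 30868 CPM (25506 to 37023) in these 31 and 29550 CPM (25109 to 34551) in these 29 barcodes, and to 2383 CPM (1303 to 3998) and 531 CPM (380 to 724) in the 30 and 23 other globin-rich ones. In the remaining unlabelled barcodes it was at 167 CPM (155 to 179) and 208 CPM (193 to 223).

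The 14 genes of the red cell membrane list came to 32 UMIs in the thymic globin-rich set, or 3322 CPM (2272 to 4690), against 393 CPM (375 to 411) in the remaining unlabelled barcodes, and 5 of the 14 were at 0. Epb41, a membrane skeleton protein also made in other cells, gave 19 of the 32 UMIs. With globins in the denominators its log2 ratio was 0.88 (0.10 to 1.49). Slc4a1, the anion exchanger of the red cell membrane, had 4 UMIs in this set and 6 in all other unlabelled thymic barcodes, a log2 ratio of 6.73 (4.40 to 8.75). In the fat the list was at 943 CPM (743 to 1181) in all globin-rich, 6211 CPM (4275 to 8723) in the 29 globin-dense and 230 CPM (215 to 246) in the remaining barcodes. The 9 transcription factors were at 311 CPM (64.2 to 910) in thymic globin-rich and 176 CPM (164 to 189) in remaining barcodes. They had no UMI in the 29 epigonadal globin-dense ones, which allows up to 694 CPM, against 147 CPM (135 to 160) in the remaining epigonadal ones. The embryonic globin genes Hba-x, Hbb-y and Hbb-bh1 had no UMI in any of the sets compared.

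Nuclear RNA was lower in globin-dense barcodes than in the other globin-rich ones, while markers of other cells showed no common pattern. Malat1, Neat1 and Meg3, which mark nuclear RNA, together came to 4790 CPM (2839 to 7570) in the 31 thymic and 4705 CPM (3045 to 6946) in the 29 epigonadal globin-dense barcodes. They were at 20596 CPM (17090 to 24609) and 7640 CPM (7028 to 8291) in the other globin-rich ones, and at 21833 CPM (21698 to 21969) and 13590 CPM (13471 to 13710) in the remaining ones. Adipocyte markers were at 2129 CPM (919 to 4195) in the thymic globin-dense and 4987 CPM (4922 to 5052) in the remaining barcodes, and at 18634 CPM (15144 to 22686) and 20974 CPM (20826 to 21123) in the fat, where the intervals overlap. Of 461 endothelial marker UMIs in the epigonadal globin-rich set, 1 lay in the 29 globin-dense barcodes. All 15 macrophage marker UMIs of the thymic globin-rich set lay outside its 31 globin-dense barcodes, and the level in the other 30 was 2553 CPM (1429 to 4211), against 139 CPM (128 to 150) in the remaining ones. T cell markers were at 798 CPM (165 to 2333) in thymic globin-dense, 681 CPM (186 to 1743) in other globin-rich and 4061 CPM (4002 to 4119) in remaining barcodes. In the fat they were at 376 CPM (45.6 to 1360) in globin-dense and 261 CPM (245 to 278) in remaining barcodes, and no difference is read from these. Platelet markers had no UMI in thymic globin-rich barcodes and 2 in epigonadal ones, and neutrophil markers had none. The part of these cells in the globin-rich barcodes was not tested.

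The label Ad IIc had few other red cell genes with enough UMIs to count, and no difference from all genes is read from them. Of 12 genes of the erythroid lists with at least 10 UMIs, 3 had a log2 ratio of 1 or more over the remaining thymic labels (Lmo2, Mkrn1 and Tmcc2), beside 15% of all genes tested, and 2 of 11 without the barcode, beside 16.1%. All 4 UMIs of Mkrn1 in the label came from it. For epigonadal Ad IIc 6 of 25 such genes were past the ratio, beside 20.3% of all genes. The 10 leading non-globin genes of the label, among those with at least 10 UMIs in it, were Gpx1, Atp5g3, Tgfb1, Cxcl9, Gng5, Ndufs6, Rack1, Prxl2c, Atp5f1 and She. Gpx1, a glutathione peroxidase abundant in red cells, led with 12 against 20 UMIs, a log2 ratio of 2.43 (1.24 to 3.51), and 3 of its 12 UMIs were in the barcode. Without the barcode 9 of the 10 genes were the same, and Atox1 took the place of Gpx1. Without those 3 UMIs Gpx1 fell under the minimum of 10 UMIs and left the list by that rule, not by a lower ratio. Of the genes that stayed, the barcode held 1 UMI of Tgfb1 and none of the others, so the overlap was largely fixed in advance.

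Outside the globin-rich barcodes, hemoglobin RNA was spread thinly over barcodes of every label. In the thymic library 15617 barcodes had no globin UMI, 5369 had 1, 1529 had 2 to 4 and 22 had 5 to 9. The mean was 0.286 globin UMIs per barcode in Ad Ib (0.156 to 0.479), 0.303 in Ad IIc (0.145 to 0.557), 0.313 in Ad IIb (0.101 to 0.729), 0.343 in Ad Ia (0.177 to 0.599) and 0.352 in Ad IIa (0.280 to 0.438). It was 0.321 (0.285 to 0.359) and 0.399 (0.391 to 0.408) in unlabelled barcodes below and above the split. The highest mean was 1.40 times the lowest. The epigonadal means ran from 0.241 in Ad IIb (0.132 to 0.405) to 0.364 in unlabelled barcodes at or above the split (0.316 to 0.418), with 0.254 (0.217 to 0.296) in Ad IIc, and the highest was 1.51 times the lowest.

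The CPM of the same barcodes differed far more, between groups that also differed in depth and mitochondrial share. In the thymic library it ranged 13.6-fold, from 185 CPM in Ad IIb, where the median barcode had 1802 UMIs, to 2511 CPM (2457 to 2565) in unlabelled barcodes at or above the split, where it had 303. These 2 groups had median mitochondrial shares of 15.1% and 70.2%, and mitochondrial UMIs count in the depth but not in the CPM denominator. Among epigonadal groups CPM ranged 5.55-fold, from 99.5 to 552 CPM (479 to 633), with medians of 2313 and 716 UMIs. Epigonadal Ad IIc, with a median of 714 UMIs, was at 325 CPM (277 to 378). The parts of depth and mitochondrial share were not tested. The plot of both measures against depth shows the wider span of CPM across groups and the narrower span of the mean per barcode.

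**Figure D4:**
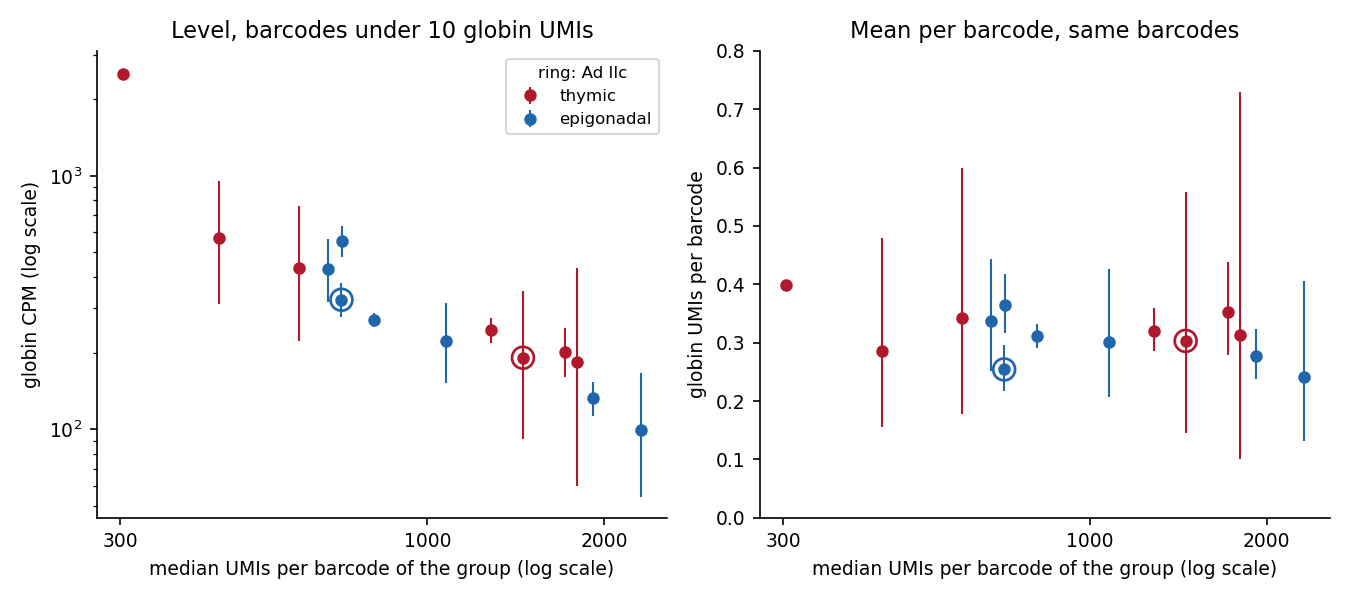
Barcodes with fewer than 10 globin UMIs: globin CPM (left, log scale) and mean globin UMIs per barcode (right) of each group against the group's median UMIs per barcode (log scale), with exact 95% Poisson intervals. Rings mark Ad IIc. CPM spans 13.6-fold in the thymic and 5.55-fold in the epigonadal library, and the mean per barcode 1.40-fold and 1.51-fold.

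The share of barcodes with a globin UMI was too imprecise in the 34 Ad IIc nuclei to set them apart. It was 23.5% (8 of 34; 10.7% to 41.2%), at a median of 1523 UMIs per nucleus, against 22.4% in Ad Ib, 22.9% in Ad Ia, 25.0% in Ad IIb and 28.6% in Ad IIa, at medians of 442 to 1802 UMIs. Unlabelled barcodes had 27.0% below and 31.1% at or above the split, and epigonadal Ad IIc had 21.1% (18.1% to 24.4%) at a median of 714 UMIs. With at least 2 globin UMIs required, the share was 11.8% in thymic Ad IIc (4 of 34; 3.30% to 27.5%) and 6.06% to 8.57% in the other thymic labels. On that count unlabelled thymic barcodes had 6.67% (5.15% to 8.47%) below and 7.17% (6.82% to 7.52%) at or above the split, and epigonadal Ad IIc had 3.80% (2.47% to 5.56%). The interval of thymic Ad IIc overlaps each of these, so no difference is read from it. Thinned to 500 UMIs, with no Ad IIc nucleus too shallow, the share was 8.82% in thymic Ad IIc (1.86% to 23.7%), between 0 of 16 in Ad IIb, which allows up to 20.6% by the exact interval, and 19.2% in Ad Ia, where 9 of 35 nuclei were left out. In epigonadal Ad IIc it was 14.7% (12.1% to 17.7%).

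The make-up of the hemoglobin RNA differed between the dense and the sparse barcodes. Alpha globins were 39.4% of globin UMIs in the thymic globin-rich barcodes below the split (38.6% to 40.2%), 58.7% in those at or above it and 60.3% in all remaining thymic barcodes (59.3% to 61.3%). Among epigonadal barcodes they were 48.3% in unlabelled globin-rich barcodes (47.8% to 48.8%) and 66.8% in the remaining ones (64.4% to 69.2%). The Ad IIc barcode had 51.8% (49.2% to 54.5%), between the pooled thymic values and within the range of single barcodes given below. The Ad IIa barcode had 66.9% (58.0% to 75.0%). In the other 33 Ad IIc nuclei 6 of 10 globin UMIs were alpha. The barcodes differed widely: the 15 below the split had a median of 43.1% alpha (21.4% to 59.7%) and the 46 at or above it 66.4% (27.3% to 92.9%). As the split depends in part on globin UMIs, mitochondrial share and globin count are not separated here. The barcode with the most globin UMIs was at 28.6%, and without it all thymic unlabelled barcodes below the split were at 42.3%.

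Among beta UMIs the pooled share of Hbb-bt was also lowest below the split. Here the thymic globin-rich barcodes at or above it were under the remaining ones as well. Hbb-bt made up 16.7% of beta UMIs in the thymic globin-rich barcodes below the split (16.0% to 17.5%), 23.1% in those at or above it (21.3% to 24.9%) and 29.0% in the remaining barcodes (27.5% to 30.5%). The Ad IIc barcode had 27.1% (23.8% to 30.6%). The pooled intervals do not cover the spread between barcodes, which was not measured for Hbb-bt. In the epigonadal library the share was 17.3% (16.7% to 17.8%) in unlabelled globin-rich and 25.9% in remaining barcodes. Hba-a2 took 44.8% of the alpha UMIs in globin-rich (43.8% to 45.8%) and 44.7% in remaining thymic barcodes (43.3% to 46.0%), and 44.3% (43.6% to 45.1%) and 52.1% (48.9% to 55.2%) of epigonadal ones. The composition plot shows both alpha and Hbb-bt shares lowest in the unlabelled globin-rich barcodes below the split.

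**Figure D5:**
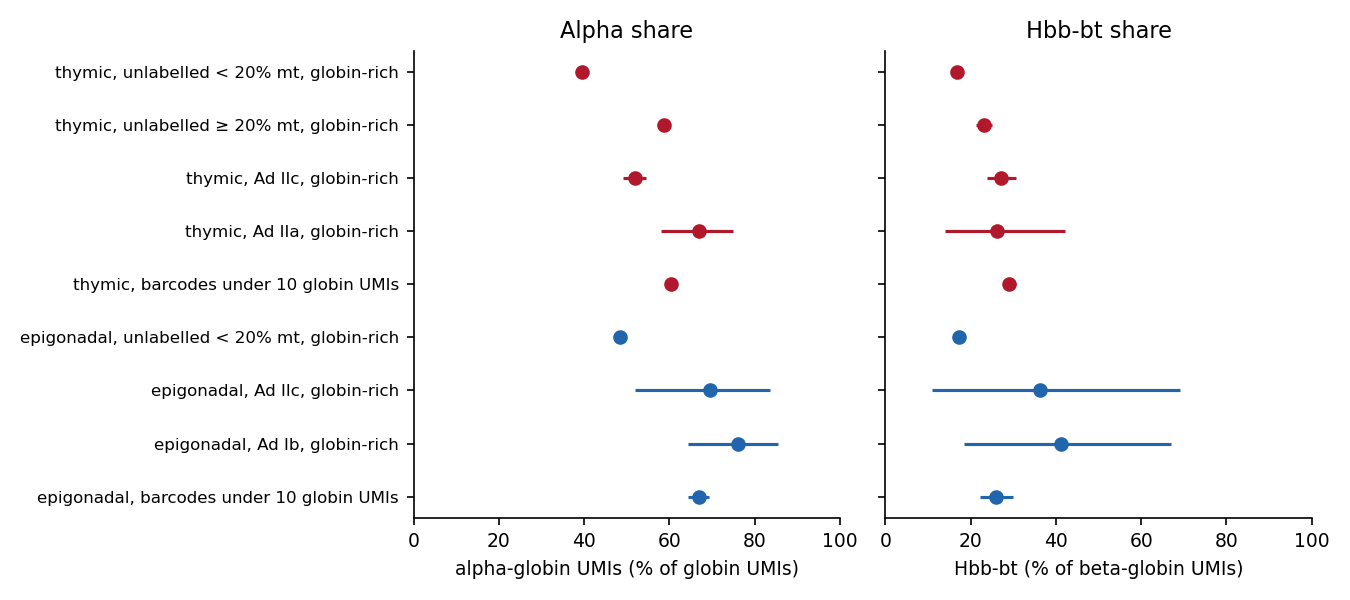
Alpha globins as a percent of all globin UMIs (left) and Hbb-bt as a percent of beta-globin UMIs (right) with exact 95% binomial intervals, for globin-rich barcodes by group and for all barcodes under 10 globin UMIs. The thymic Ad IIc barcode, at 51.8% alpha and 27.1% Hbb-bt, lies above the pooled values of the unlabelled globin-rich barcodes below the split, 39.4% and 16.7%. Single barcodes of that group ranged from 21.4% to 59.7% alpha, and the intervals do not cover this spread. Hbb-bt also differed between them, with 5 UMIs beside 202 of Hbb-bs in 1 barcode and 27 beside 61 in another.

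Over the 14 groups of barcodes, the non-globin genes whose log2 CPM followed the summed globins most closely were Cd40lg (Pearson r = 0.88), Spn (0.85), Pbk (0.84), Ptpn7 (0.83) and Gm36975 (0.81), among 11580 genes with at least 50 UMIs. Alas2 had r = 0.72. These values describe 14 groups from 2 libraries, which share depth and library, and the thymic Ad IIc group among them rests on 1 barcode.

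Few chromatin fragments lay at the globin genes in labelled thymic nuclei of the 6-month females, counted as fragments of transposase-accessible DNA over each gene and 2 kb on either side. The 146 nuclei labelled thyAD I, with 1646902 fragments, had 0 fragments at Hbb-bs, Hbb-bt and Hba-a2 and 1 at Hba-a1. The 140 labelled thyAD II, with 2189613 fragments, had 1, 0, 3 and 1 at these genes. The 31 labelled Immune, with 561387 fragments, had 1 at Hbb-bs, 2 at Hbb-bt and none at the alpha genes. A count of 0 was also found for 10.6% of 21883 protein-coding genes in thyAD I, 9.29% in thyAD II and 16.3% in Immune. These shares were not matched for gene length. By the exact interval a count of 0 allows up to 2.24 CPM, here per all fragments of the label, in thyAD I and 1.68 in thyAD II. Of the thyAD values per kb the highest was 0.284 CPM, at Hba-a2 in thyAD II (0.0586 to 0.831). Its interval holds the median of 0.677 over 21883 protein-coding genes. That of Hba-a1 in thyAD I, 0.126 (0.00319 to 0.703), holds the median of 0.631 there. The other thyAD intervals at globin genes, on 0 or 1 fragments, lay below these medians, reaching at most 0.465 in thyAD I and 0.528 in thyAD II. Immune nuclei, on 1 and 2 fragments, were at 0.330 for Hbb-bs (0.00834 to 1.84) and 0.660 for Hbb-bt (0.0799 to 2.38). These overlap the thyAD intervals at the same genes, so no difference is read. Both intervals hold the Immune median of 0.637. The promoter windows held 2 to 10 fragments per gene among 96662704 fragments of unlabelled or unlisted barcodes, too few for the count in labelled nuclei to be read.

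Alas2, a longer gene, had 11 fragments in 11 thyAD I nuclei, or 6.68 CPM (3.33 to 12.0), and 16 in 14 thyAD II nuclei, or 7.31 CPM (4.18 to 11.9). Per kb it was at 0.246 CPM (0.123 to 0.439) and 0.269 CPM (0.154 to 0.436), below the medians over all genes. Of all genes, 31.0% lay at or below Alas2 in thyAD I and 31.3% in thyAD II. Immune nuclei had 0 fragments at Alas2, which allows up to 0.242 CPM per kb by the exact interval. That range overlaps both thyAD intervals. Barcodes without a label, or beyond the rows used, had 4.74 CPM at Alas2 (4.31 to 5.19), 0.631 at Hbb-bs (0.483 to 0.811), 0.579 at Hbb-bt (0.438 to 0.752), 0.931 at Hba-a1 (0.749 to 1.14) and 1.14 at Hba-a2 (0.935 to 1.37). Without the 2 kb on either side these values were 3.98 at Alas2, 0.166 at Hbb-bs, 0.124 at Hbb-bt and 0 at both alpha genes, while Hba-a2 in thyAD II was at 0 and Hba-a1 in thyAD I stayed at 0.607. The flanks are most of each window at the globin genes, and the alpha copies are nearly identical. The treatment of reads fitting both copies is not stated. No barcode had more than 4 fragments at any globin gene. The chromatin and RNA come from different mice, sexes and ages, and the female labels do not divide the nuclei as Ad Ia to Ad IIc do.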

How the data were processed

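Whole-number UMI counts of 2 RNA libraries were used as deposited; they come from cellranger 7.2.0, per the file headers, and the sources used here do not state the annotation or whether intronic reads were counted. Labels, doublet classes and percent mitochondrial UMIs of labelled nuclei came from the authors' deposited table. For chromatin, cellranger-arc 2.0.2 and GRCm38 are named per the file headers. The submitters' processing notes list mm10, Cell Ranger ARC 2.0.2 and Seurat 5.1.0. Labels of 6-month nuclei were read to row 317, since row 318 was cut short. RNA of that library was not analysed here.

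UMIs were summed per label. Intervals were exact Poisson for levels and exact Clopper-Pearson for shares and for the split of counts behind each log2 ratio. For log2 ratios each sum was raised by 0.5 UMI; they needed 10 UMIs over both sides and were called at 1. In the plot of levels a count of 0 was drawn at 3 counts, while limits in the text are those of the exact interval. The ratio and thinning steps were tested on simulated data. All labelled nuclei were singlets by the authors' classes, and unlabelled barcodes were not searched for doublets. Named genes were the members, the listed genes, the 10 leading non-globin genes of each set (at least 10 UMIs in it; mitochondrial, ribosomal and predicted genes left out) and the 5 most like the globins. Members and lists were chosen with earlier results of these data known, and the limit of 10 globin UMIs after the data were seen. Python 3.11.15, scipy 1.17.1 and edgeR 4.0.16 (an alternative scaling) were used. Values of some listed genes are not reported here.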

Additional observations from a re-analysis of the deposited data

How the results depend on the processing

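The level of thymic Ad IIc depends on 1 barcode: without it the level was 192 CPM, Alas2 was at 0 per 1000 globin UMIs and alpha globins at 60%. It was 22122 CPM over all UMIs, 19687 as a mean over barcodes and 28115 in barcodes of at least 1000 UMIs, and thinning took the share of nuclei with a globin UMI to 8.82%. In the same order of 3 settings, then without the highest barcode and with the split at 30%, thymic unlabelled barcodes below the split were at 11044, 13259, 11841, 10325 and 9327 CPM, and those above it at 1713, 5140, 950 (950.5), 3931 and 3886. Epigonadal unlabelled barcodes below the split were at 9675, 9796, 12165, 9622 and 9777 CPM, and at 10619 with globins out of the denominator. A split at 10% gave 28141 CPM for the thymic and 14694 for the epigonadal barcodes below it. Epigonadal Ad IIc was at 325 CPM without its highest barcode, and its share was 3.80% for at least 2 UMIs and 14.7% thinned. With no minimum of UMIs the erythroid genes past the ratio numbered 15 in thymic Ad IIc, 38 in thymic and 27 in epigonadal globin-rich barcodes. With a minimum of 50 they numbered 0, 10 and 9. For these 2 settings neither the genes tested nor the share over all genes is given, so the counts are not read as results. With 3 UMIs in the globin-rich set, chosen after seeing the data, they numbered 11 in the thymus, beside 0.618% of all genes. The other causes of these moves were not tested. Chromatin values without the flanks moved in 8 of 15 cases and with cut sites in none. No paired analysis was possible because each group has 1 library, and no replicate could be left out.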
